A study of Homo sapiens with 12 samples.

Results

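The matrix metalloproteinases (MMP), the ADAM and ADAMTS proteases and the tissue inhibitors of metalloproteinases (TIMP) were followed in 4 human pancreatic ductal adenocarcinoma cultures on Affymetrix arrays. The genes were taken by name: each probe set with 1 gene symbol beginning with MMP, ADAM, ADAMTS or TIMP and a number was kept, and for a gene with several probe sets the one with the highest mean over the 12 arrays was used. This gave 66 of the 18417 genes measured: 22 MMP, 23 ADAM, 17 ADAMTS and 4 TIMP genes. Of the 66, 4 (ADAM20P1, ADAM3A, ADAM5 and ADAM6) are not annotated as protein-coding in RefSeq. The names set the choice of genes, and levels entered only where a gene had several probe sets, which was so for 2 genes (MMP16 and TIMP3).

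The groups were AsPC1-R, a cisplatin-resistant derivative of AsPC1 maintained in 1.67 µM cisplatin, the parental line AsPC1, BxPC3-R, a cisplatin-resistant derivative of BxPC3 maintained in 0.60 µM cisplatin, and the parental line BxPC3, with 3 arrays each. Cisplatin, a platinum compound, kills cells by crosslinking their DNA, and all cultures were harvested subconfluent, the derivatives after a last subculture without drug. There was 1 derivative of each line, the labels do not say whether it is a clone, and a change cannot be told apart from a property of that derivative. Since nothing in the labels gives the 3 samples of a group as separate cultures, the spread behind each p-value is that between these samples and may be technical.

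MMPs are zinc-dependent endopeptidases that cut collagens, other matrix proteins and many secreted factors, and most are made as inactive precursors. ADAMs are membrane-anchored relatives, of which the catalytically active ones release growth factors, cytokines and receptors from the cell surface, a step called shedding. ADAMTS proteases are secreted and act on proteoglycans, procollagens and other matrix proteins, and TIMPs bind and block the active sites of MMPs and of some ADAM and ADAMTS enzymes. In pancreatic carcinoma, which is rich in stroma, these genes are known from both the tumour cells and the surrounding fibroblasts and leukocytes.

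Levels are log2 values, so a difference of 1 is a doubling, and the medians of the arrays ran from 6.48 to 6.65. The precision is limited by the number of arrays, and no background level is given. The genes CDKN2A and SMAD4 are both deleted in BxPC3 but averaged 6.22 and 4.70 in its arrays. The size of a difference is therefore uncertain where the lower group averaged under 6.22. CDKN2A averaged 5.75 in BxPC3-R and was itself called lower there (-0.47, limma adjusted p 0.0249). Its difference between the lines was also called (0.70, limma adjusted p 0.0158). Where both groups lay near or under 6.22, the call and its direction are thus uncertain too. All 5 epithelial markers reached the median of all values in every group, with their mean at 11.62 to 11.73 in AsPC1-R, 11.85 to 12.14 in AsPC1, 11.42 to 11.52 in BxPC3-R and 10.98 to 11.13 in BxPC3 arrays. The mean over 8 fibroblast markers lay at 6.25 to 6.31 in AsPC1-R, 6.38 to 6.57 in AsPC1, 5.79 to 5.94 in BxPC3-R and 5.47 to 5.67 in BxPC3 arrays. Among these, the collagen-binding proteoglycan gene DCN averaged 4.10 in AsPC1-R, 4.10 in AsPC1, 3.83 in BxPC3-R and 4.04 in BxPC3, while its relative LUM averaged 10.51 in AsPC1-R, 11.55 in AsPC1, 6.45 in BxPC3-R and 4.91 in BxPC3. The mean over 7 leukocyte markers lay at 6.88 to 6.89 in AsPC1-R, 6.74 to 6.94 in AsPC1, 5.31 to 5.50 in BxPC3-R and 5.52 to 6.02 in BxPC3 arrays, with PTPRC at 3.19 to 3.27 in all 4 group means. Among these, the lysosomal macrophage marker CD68 was called higher in AsPC1-R (0.72, adjusted p 4.68e-05) and lower in BxPC3-R (-0.72, adjusted p 4.78e-05), CD3E was called lower in BxPC3-R (-0.47, adjusted p 0.0184), and LYZ averaged 12.21 in AsPC1 and 5.69 in BxPC3, where replicate 2 read 7.71. The mean over 4 endothelial markers lay at 5.66 to 5.78 in AsPC1-R, 5.46 to 5.84 in AsPC1, 5.75 to 5.83 in BxPC3-R and 6.63 to 6.81 in BxPC3 arrays. Of these, PECAM1 was called higher in AsPC1-R (0.66, adjusted p 0.00292) and lower in BxPC3-R (-1.24, adjusted p 1.60e-05), CDH5 averaged 6.67 in BxPC3-R and 9.34 in BxPC3 (-2.67, adjusted p 2.99e-08), and KDR and VWF were not called in either derivative. The part of any of these in the results was not tested, and in such bulk samples fewer cells of a type and less RNA per cell cannot be told apart.

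BxPC3 replicate 2 stood apart from the other BxPC3 arrays. Of the 50 transcripts most in excess in AsPC1 over BxPC3-R, all 50 had their highest BxPC3 value there, with a median excess of 0.83 over the other arrays of that line. Of the 17 genes of these families that were higher in AsPC1 than in BxPC3, 5 were highest on that array, against 7 and 5 on the other BxPC3 arrays. Many of these genes differed little between the lines, so the count cannot show whether the array affects single genes. Highest on it were, among others, MMP7 (8.31, 8.67 and 8.14 in BxPC3 replicates 1, 2 and 3), TIMP2 (9.16, 9.30 and 9.10) and ADAM17 (9.49, 9.56 and 9.47). Counts without this array are given beside those with it.

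Both derivatives differed from their parental lines in a minority of the 66 genes. A gene is said to rise, fall or be called at an adjusted p under 0.05 by limma, with p-values adjusted over all 18417 genes. In AsPC1-R, 13 of the 66 genes were called (19.7%), 9 higher and 4 lower than in AsPC1, where 20.3% of all genes were called, 11.6% higher and 8.64% lower. In BxPC3-R, 16 were called (24.2%), 8 higher and 8 lower than in BxPC3, where 20.8% of all genes were called, 9.75% higher and 11% lower. The median difference over the 66 genes was -0.05 in AsPC1-R and 0.03 in BxPC3-R, against -0.05 and 0.02 over all genes. These shares lie near those of all genes, so they are not a result about the families, and what follows concerns single genes. With dim genes left out, 9 of the 29 members kept were called in AsPC1-R (31%), where 31.7% of all genes kept were called, and 16 of the 29 in BxPC3-R (55.2%), where 31.9% were. A gene is kept there if 1 group mean is high, so these counts are given as values only. Without BxPC3 replicate 2 the counts were 13 in AsPC1-R and 15 in BxPC3-R, with 20.2% and 17.4% of all genes called.

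Of the 66 genes, 5 were called in both derivatives. MMP7 and MMP15 were lower and ADAM32 was higher in both, while ADAM17 and TIMP2 were higher in AsPC1-R and lower in BxPC3-R. A further 42 genes were called in neither derivative. The shares of all genes called in both or in neither were not counted, so these counts are given as values only. The difference between the lines, which is the AsPC1-R minus AsPC1 change less the BxPC3-R minus BxPC3 change, was called for 19 genes (28.8%), 10 higher and 9 lower, where 25.4% of all genes were called, 14.1% higher and 11.3% lower. With arrays centred on their medians, the higher share among all called genes was 44.4% in place of 55.4%, and the members split into 9 higher and 10 lower. Without BxPC3 replicate 2, 16 of the 66 were called, with 22.7% of all genes. Of the 66 genes, 29 reached the median of all values, 6.554, in at least 1 group mean and 37 did not.

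**Figure D1:**
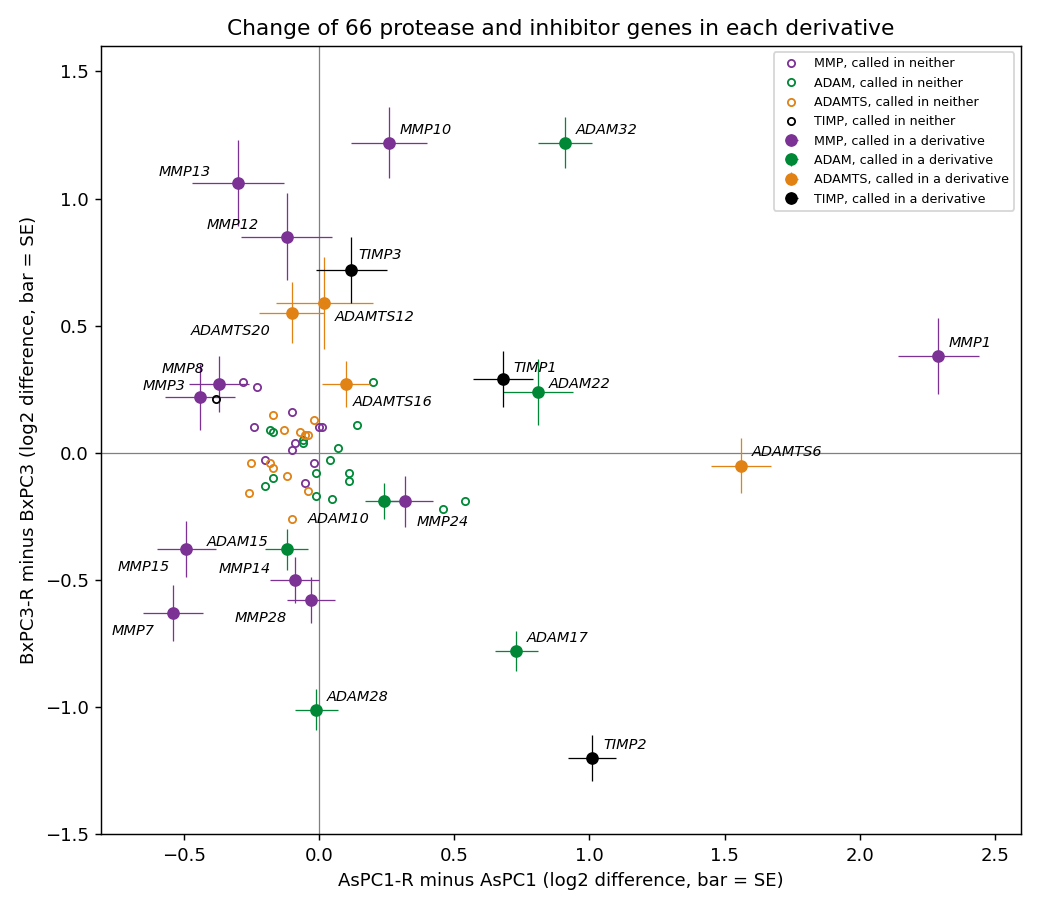
Each point is 1 of the 66 genes, with the log2 difference AsPC1-R minus AsPC1 on the horizontal axis and BxPC3-R minus BxPC3 on the vertical axis, bars showing the standard error. Filled, named points were called in at least 1 derivative. TIMP2 and ADAM17 lie at lower right (higher in AsPC1-R, lower in BxPC3-R), ADAM32 at upper right, MMP7 and MMP15 at lower left, and MMP1 farthest right at 2.29.

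The MMP genes on chromosome 11 lie side by side in the order MMP7, MMP20, MMP27, MMP8, MMP10, MMP1, MMP3, MMP12 and MMP13, and they hold the collagenases, stromelysins and matrilysin of textbook MMP biology. The promoters of MMP7, MMP8 and MMP10 are shown because these neighbours moved differently and because AP-1 binding and a TATA box are textbook features of MMP promoters. ADAMTS12 is shown as a gene outside the cluster that holds the AP-1 letters and rose in BxPC3-R. Each line gives the 120 bases before the gene's start on its own strand, in RefSeq's GRCh38.p14, with capitals marking matches to TGANTCA, the letters of an AP-1 site, and to TATAAA, those of a TATA box. MMP7 lies at chr11:102530748-102530867, MMP8 at chr11:102724955-102725074, MMP10 at chr11:102780629-102780748 and ADAMTS12 at chr5:33891991-33892110, all on the minus strand.
MMP7: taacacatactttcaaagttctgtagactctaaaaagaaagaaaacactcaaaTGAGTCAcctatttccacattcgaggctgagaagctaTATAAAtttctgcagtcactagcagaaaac
MMP8: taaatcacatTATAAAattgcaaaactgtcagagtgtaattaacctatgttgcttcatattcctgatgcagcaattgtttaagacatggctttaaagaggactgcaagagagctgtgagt
MMP10: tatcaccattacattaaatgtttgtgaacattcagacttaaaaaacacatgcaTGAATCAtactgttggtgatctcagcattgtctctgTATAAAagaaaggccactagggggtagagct
ADAMTS12: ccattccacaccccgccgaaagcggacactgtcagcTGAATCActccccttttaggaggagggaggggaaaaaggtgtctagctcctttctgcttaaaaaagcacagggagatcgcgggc
Counted from the gene's start, the TGANTCA match began at -67 in MMP7, at -67 in MMP10 and at -84 in ADAMTS12, and the TATAAA match began at -30 in MMP7, at -31 in MMP10 and at -110 in MMP8. Over 250 bases upstream and both strands, the AP-1 letters were found in 6.6% of 27305 RefSeq promoters and in 4 of the 37 family members with a promoter in that table (10.8%), which were ADAMTS12, MMP10, MMP20 and MMP7. The TATAAA letters were found in 11.1% of all and in 7 of the 37 (18.9%). The promoters of MMP1, MMP3, MMP12, MMP13 and TIMP2 were not among the 37, so their letters were not examined. No match of TGANTCA overlapped one of TATAAA in these sequences, and a match describes the letters only. Of the 3 genes shown with the AP-1 letters, MMP7 fell in both derivatives, while MMP10 and ADAMTS12 rose in BxPC3-R. MMP20, which is not shown, holds the AP-1 and the TATAAA letters and was called in no comparison.

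The interstitial collagenase gene MMP1 (probe set 7951271), whose product opens the triple helix of fibrillar collagen, rose in AsPC1-R. Its log2 level was 8.29, 8.41 and 8.38 in AsPC1-R, against 6.41, 5.96 and 5.83 in AsPC1. In the BxPC3 line it read 11.75, 11.75 and 11.86 in BxPC3-R, against 11.08, 11.62 and 11.53 in BxPC3. In both lines every derivative array lay above every parental array. The difference was 2.29 (SE 0.15, adjusted p 1.11e-07, 4.89-fold) in AsPC1-R, a size that is uncertain because AsPC1 averaged 6.06, and 0.38 (SE 0.15, adjusted p 0.104) in BxPC3-R, which was not called. The changes differed by 1.92 (SE 0.21, adjusted p 1.56e-05) between the lines. Without AsPC1 replicate 1 the 0.38 in BxPC3-R was called at an adjusted p of 0.0487.

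The matrilysin gene MMP7 (probe set 7951217), which encodes a small secreted protease of epithelial cells, fell in both derivatives. It read 11.79, 11.87 and 11.77 in AsPC1-R, against 12.45, 12.26 and 12.34 in AsPC1. It read 7.69, 7.81 and 7.71 in BxPC3-R, against 8.31, 8.67 and 8.14 in BxPC3. No derivative array reached its parental arrays in either line. The differences were -0.54 (SE 0.11, adjusted p 0.00379) and -0.63 (SE 0.11, adjusted p 0.00111), and they differed from each other by 0.09 (SE 0.16, adjusted p 0.724). The highest BxPC3 value, 8.67, came from replicate 2, the array that stood apart, so the size of the fall in BxPC3-R is less certain.

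Of the other called genes of the cluster, MMP10, MMP12 and MMP13 rose in BxPC3-R and MMP3 and MMP8 fell in AsPC1-R, and for all 5 the difference between the lines was called. The collagenase gene MMP13 read 8.05, 8.09 and 8.18 in BxPC3-R, against 6.66, 7.41 and 7.07 in BxPC3. It read 5.27, 4.70 and 4.88 in AsPC1-R, against 5.27, 5.41 and 5.08 in AsPC1. The BxPC3-R arrays lay above all BxPC3 arrays, by 1.06 (SE 0.17, adjusted p 0.000505, 2.08-fold), while the AsPC1 line groups overlapped, with a difference of -0.30 (SE 0.17, adjusted p 0.253). The stromelysin gene MMP10, whose product cuts proteoglycans and can activate collagenase precursors, read 6.84, 6.98 and 7.27 in BxPC3-R, against 5.76, 6.09 and 5.59 in BxPC3. In the AsPC1 line it read 5.55, 5.63 and 5.66 in AsPC1-R, against 5.13, 5.51 and 5.41 in AsPC1. The groups did not overlap in either line, and the difference was 1.22 (SE 0.14, adjusted p 2.88e-05) in BxPC3-R and 0.26 (SE 0.14, adjusted p 0.222) in AsPC1-R, with the BxPC3 mean of 5.81 leaving the size uncertain. The tests of the difference between the lines gave -1.36 (SE 0.24, adjusted p 0.000893) for MMP13 and -0.95 (SE 0.20, adjusted p 0.00276) for MMP10.

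MMP12, the macrophage elastase gene, and MMP8, the neutrophil collagenase gene, were picked after their values were seen, since no group mean of either reached the median. MMP12 read 5.74, 5.75 and 5.45 in BxPC3-R, against 4.89, 4.85 and 4.64 in BxPC3, a difference of 0.85 (SE 0.17, adjusted p 0.002), with overlapping groups in the AsPC1 line, and the lines differed by -0.97 (SE 0.23, adjusted p 0.00719). MMP8 read 2.77, 3.12 and 3.05 in AsPC1-R, against 3.42, 3.43 and 3.20 in AsPC1, a difference of -0.37 (SE 0.11, adjusted p 0.0333), and the lines differed by -0.64 (SE 0.16, adjusted p 0.00904). These levels are under that of the deleted CDKN2A, so neither difference is shown to stand above background. The stromelysin gene MMP3 read 4.85, 4.66 and 4.79 in AsPC1-R, against 5.23, 5.24 and 5.17 in AsPC1, also under that level. Its difference was -0.44 (SE 0.13, adjusted p 0.024) in AsPC1-R and 0.22 (SE 0.13, adjusted p 0.267) in BxPC3-R, where it read 5.54, 5.96 and 5.67 against 5.31, 5.40 and 5.78 in BxPC3, and the lines differed by -0.67 (SE 0.18, adjusted p 0.0137). The MMP3 call was lost without AsPC1-R replicate 2 (adjusted p 0.0937), AsPC1-R replicate 3 (0.0546), AsPC1 replicate 1 (0.0657) or AsPC1 replicate 2 (0.0601). The MMP8 call was lost without AsPC1-R replicate 1 (0.155), AsPC1-R replicate 3 (0.0508), AsPC1 replicate 1 (0.102) or AsPC1 replicate 2 (0.0975), and also with quantile normalization once more (0.0776), with limma's trend and robust settings (0.0504) or with only the groups compared (0.0726).

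Of the 9 cluster genes, 4 were called in AsPC1-R (44.4%, against 20.3% of all genes), 1 higher and 3 lower, with a median difference of -0.20. In BxPC3-R 4 were called (44.4%, against 20.8%), 3 higher and 1 lower, with a median of 0.27. The difference between the lines was called for 6 of the 9 (66.7%, against 25.4%), with MMP1 higher and MMP10, MMP12, MMP13, MMP3 and MMP8 lower, and a median of -0.64, against -0.07 over all genes. All group means of MMP3, MMP8 and MMP12 lay under that of the deleted CDKN2A, so these counts rest in part on uncertain calls. The median of -0.20 is the value of MMP20, and 0.27 and -0.64 are values of MMP8, also under that level. The counts and medians are thus given as values only. Neighbours in the cluster thus differed in direction within a line: in BxPC3-R MMP7 fell while MMP10, MMP12 and MMP13 rose. The remaining cluster genes MMP20, whose product shapes tooth enamel, and MMP27 were called in no comparison, with group means of 4.55 to 5.06.

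**Figure D2:**
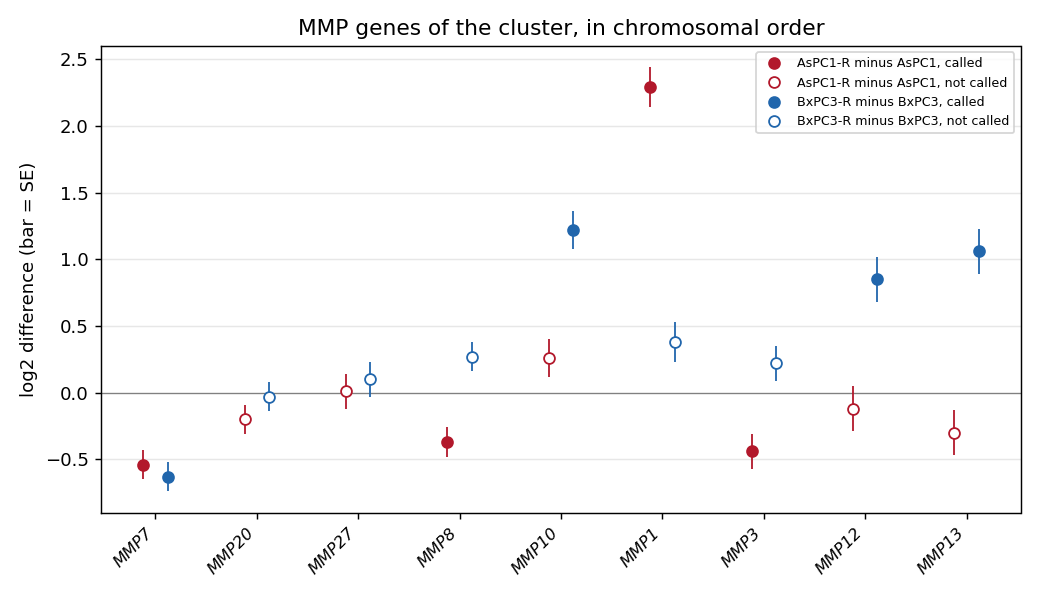
The log2 difference of the 9 chromosome 11 MMP genes in chromosomal order, AsPC1-R minus AsPC1 left and BxPC3-R minus BxPC3 right for each gene, with bars showing the standard error and filled points called. MMP1 stands at 2.29 in AsPC1-R, MMP10, MMP12 and MMP13 at 0.85 to 1.22 in BxPC3-R, and MMP7 below 0 in both.

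Outside the cluster, 2 of 13 MMP genes were called in AsPC1-R (15.4%, against 20.3% of all genes) and 3 in BxPC3-R (23.1%, against 20.8%). MMP14, the gene of the membrane-type collagenase that activates the MMP2 precursor at the cell surface, read 9.88, 9.97 and 10.02 in BxPC3-R, against 10.47, 10.51 and 10.38 in BxPC3. In the AsPC1 line it read 7.91, 8.23 and 8.04 in AsPC1-R, against 8.27, 8.12 and 8.07 in AsPC1. All BxPC3-R arrays were below the BxPC3 arrays, by -0.50 (SE 0.09, adjusted p 0.00168), and the AsPC1 line groups overlapped, at -0.09 (SE 0.09, adjusted p 0.537). The difference between the lines was 0.40 (SE 0.13, adjusted p 0.0399). That call was lost without AsPC1-R replicate 2 (adjusted p 0.0973) or 3 (0.0611), AsPC1 replicate 2 (0.0667) or 3 (0.0691), BxPC3-R replicate 1 (0.0981) or 2 (0.0725), and BxPC3 replicate 1 (0.0669) or 2 (0.0847). It was also lost with replicate number as a block (0.0538), with quantile normalization once more (0.0522) and with arrays centred on their medians (0.0791).

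MMP15, another membrane-type MMP gene, fell in both derivatives. It read 6.18, 6.45 and 6.51 in AsPC1-R, against 7.03, 6.84 and 6.73 in AsPC1. It read 6.22, 6.43 and 6.33 in BxPC3-R, against 6.74, 6.77 and 6.61 in BxPC3. The groups did not overlap in either line, with differences of -0.49 (SE 0.11, adjusted p 0.00504) and -0.38 (SE 0.11, adjusted p 0.0209). The BxPC3-R call was lost without BxPC3-R replicate 1 (adjusted p 0.0929), BxPC3-R replicate 3 (0.0539), BxPC3 replicate 1 (0.0628) or BxPC3 replicate 2 (0.0733).

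MMP28, which encodes epilysin, a secreted MMP of epithelia, read 7.69, 7.62 and 7.60 in BxPC3-R, against 8.38, 8.22 and 8.05 in BxPC3. In the AsPC1 line its 3 AsPC1-R arrays averaged 8.03 ± 0.07 and its 3 AsPC1 arrays 8.07 ± 0.05 (SD), and these groups overlapped. Only the BxPC3 line groups were apart, with a difference of -0.58 (SE 0.09, adjusted p 0.000326), against -0.03 (SE 0.09, adjusted p 0.835) in AsPC1-R, and the lines differed by 0.55 (SE 0.13, adjusted p 0.00548). MMP24, a membrane-type MMP gene best known from the nervous system, read 6.82, 6.79 and 6.93 in AsPC1-R, against 6.52, 6.48 and 6.59 in AsPC1. In the BxPC3 line it read 6.28, 5.96 and 6.12 in BxPC3-R, against 6.43, 6.32 and 6.17 in BxPC3. It rose by 0.32 (SE 0.10, adjusted p 0.0321) in AsPC1-R, overlapped in the BxPC3 line at -0.19 (SE 0.10, adjusted p 0.218), and the lines differed by 0.51 (SE 0.14, adjusted p 0.0142). Its AsPC1-R call was lost without AsPC1-R replicate 1 (adjusted p 0.0682), 2 (0.0558) or 3 (0.111), or without AsPC1 replicate 1 (0.0758) or 2 (0.0857).

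The gelatinase genes MMP2 and MMP9, whose products cut denatured collagen and basement membrane, were called in neither derivative. MMP2 read 5.53, 5.48 and 5.61 in AsPC1-R, against 5.81, 5.87 and 5.63 in AsPC1. It read 5.75, 5.73 and 5.71 in BxPC3-R, against 5.49, 5.60 and 5.34 in BxPC3. Neither line's groups overlapped, and the differences of -0.23 (SE 0.09, adjusted p 0.0925) and 0.26 (SE 0.09, adjusted p 0.0597) differed by -0.49 (SE 0.13, adjusted p 0.0116). The AsPC1-R difference was called without AsPC1 replicate 3 (adjusted p 0.0314). The BxPC3-R difference was called without AsPC1 replicate 2 (0.0481), AsPC1 replicate 3 (0.0384) or BxPC3 replicate 2 (0.0373), with quantile normalization once more (0.0338) and with arrays centred on their medians (0.016). MMP9 read 5.87, 5.78 and 5.49 in AsPC1-R, against 5.71, 5.72 and 5.84 in AsPC1, and 5.92, 5.61 and 5.63 in BxPC3-R, against 5.82, 5.87 and 5.83 in BxPC3. Its groups overlapped in both lines, and all levels of both genes lay under that of the deleted CDKN2A.

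Of the 23 ADAM genes, 4 rose and 0 fell in AsPC1-R, and 1 rose and 3 fell in BxPC3-R. That is 17.4% in each derivative, under the 20.3% and 20.8% of all genes, and not a result about the family. At an unadjusted limma p under 0.05 the counts were 5 higher and 0 lower in AsPC1-R and 2 higher and 5 lower in BxPC3-R. Over all 18417 genes they were 2931 higher and 2914 lower in AsPC1-R and 2725 higher and 2867 lower in BxPC3-R. ADAM17 (probe set 8050190, chromosome 2) encodes the main sheddase of tumour necrosis factor and of several ligands of the epidermal growth factor receptor. It read 10.62, 10.70 and 10.61 in AsPC1-R, against 9.86, 9.87 and 10.00 in AsPC1. It read 8.66, 8.68 and 8.83 in BxPC3-R, against 9.49, 9.56 and 9.47 in BxPC3. Every AsPC1-R array lay above every AsPC1 array and every BxPC3-R array below every BxPC3 array. The differences were 0.73 (SE 0.08, adjusted p 1.61e-05, 1.66-fold) and -0.78 (SE 0.08, adjusted p 9.76e-06, 1.72-fold lower), and they differed by 1.52 (SE 0.11, adjusted p 3.09e-07).

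ADAM10 encodes the sheddase of Notch receptors and E-cadherin. It read 12.66, 12.57 and 12.59 in AsPC1-R, against 12.37, 12.43 and 12.31 in AsPC1. It read 12.51, 12.46 and 12.48 in BxPC3-R, against 12.74, 12.61 and 12.67 in BxPC3. The groups were apart in both lines and in opposite directions, by 0.24 (SE 0.07, adjusted p 0.0334) and by -0.19 (SE 0.07, adjusted p 0.0896, not called), and the lines differed by 0.43 (SE 0.10, adjusted p 0.00727). The AsPC1-R call was lost without AsPC1-R replicate 1 (adjusted p 0.125), 2 (0.0568) or 3 (0.0661), AsPC1 replicate 1 (0.0699) or 3 (0.0744), BxPC3-R replicate 2 (0.0528) or BxPC3 replicate 3 (0.0514), and with only the groups compared (0.118). The BxPC3-R difference was called with dim genes left out (0.0465), with quantile normalization once more (0.02) and with limma's trend and robust settings (0.00818).

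ADAM28, a gene of an ADAM known from lymphocytes and carcinomas, fell in BxPC3-R. It read 9.81, 9.92 and 9.99 in BxPC3-R, against 10.77, 10.95 and 11.03 in BxPC3. It read 10.40, 10.29 and 10.36 in AsPC1-R, against 10.35, 10.35 and 10.39 in AsPC1. The BxPC3-R arrays were all lower, by -1.01 (SE 0.08, adjusted p 1.62e-06, 2.02-fold), while the AsPC1 line groups overlapped at -0.01 (SE 0.08, adjusted p 0.953), and the lines differed by 1.00 (SE 0.12, adjusted p 3.07e-05). ADAM15, whose product carries an integrin-binding motif in its disintegrin domain, fell to 7.51, 7.49 and 7.40 in BxPC3-R, against 7.88, 7.82 and 7.84 in BxPC3 (-0.38, SE 0.08, adjusted p 0.00537). In the AsPC1 line its groups overlapped, and the difference between the lines, 0.26 (SE 0.12, adjusted p 0.137), was not called.

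ADAM32, a gene known from testis that lacks the catalytic zinc motif, rose in both derivatives. It read 6.56, 6.60 and 6.53 in AsPC1-R, against 5.58, 5.60 and 5.78 in AsPC1. It read 8.15, 8.27 and 8.44 in BxPC3-R, against 6.91, 7.11 and 7.16 in BxPC3. All derivative arrays lay above their parental arrays, with differences of 0.91 (SE 0.10, adjusted p 1.55e-05) and 1.22 (SE 0.10, adjusted p 1.06e-06), and these differed by -0.32 (SE 0.14, adjusted p 0.116). The AsPC1 mean was 5.66, so the size of the first is uncertain. ADAM9, a sheddase gene next to ADAM32 on chromosome 8, read 12.68, 12.65 and 12.71 in AsPC1-R, against 12.61, 12.63 and 12.58 in AsPC1, and 12.53, 12.49 and 12.53 in BxPC3-R, against 12.58, 12.42 and 12.48 in BxPC3. It was called in no comparison. ADAM22, a brain receptor gene without protease activity that was picked after its values were seen, averaged 5.97 ± 0.12 in AsPC1-R, with 5.84 its lowest array, against 5.16 ± 0.15 in AsPC1, with 5.31 its highest (SD; 0.81, SE 0.13, adjusted p 0.000363), with all levels under that of the deleted CDKN2A.

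Both sheddases depend on partner proteins: the iRhoms RHBDF1 and RHBDF2 with FRMD8 carry ADAM17 to the cell surface, and the TspanC8 tetraspanins do so for ADAM10 and affect which substrates it cuts. RHBDF2 read 6.46, 6.65 and 6.60 in AsPC1-R, against 6.23, 6.42 and 6.25 in AsPC1. It read 6.35, 6.10 and 6.06 in BxPC3-R, against 6.61, 6.57 and 6.56 in BxPC3. The groups were apart in both lines and on the same sides as those of ADAM17. The RHBDF2 levels lay near that of the deleted CDKN2A, and the BxPC3-R mean of 6.17 under it, so the size of its fall is uncertain. The difference was 0.27 (SE 0.09, adjusted p 0.0613, not called) in AsPC1-R and -0.41 (SE 0.09, adjusted p 0.00638) in BxPC3-R, and the lines differed by 0.68 (SE 0.13, adjusted p 0.0018). The AsPC1-R difference was called without AsPC1 replicate 2 (adjusted p 0.0371) or BxPC3-R replicate 1 (0.0434), with dim genes left out (0.0358), with quantile normalization once more (0.0241) and with arrays centred on their medians (0.0496). RHBDF1 and FRMD8 were called in neither derivative.

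TSPAN5, a TspanC8 gene, read 9.88, 10.02 and 10.02 in BxPC3-R, against 7.98, 8.48 and 8.27 in BxPC3. It read 4.98, 5.20 and 5.11 in AsPC1-R, against 5.13, 5.33 and 4.88 in AsPC1. It rose by 1.73 (SE 0.13, adjusted p 7.07e-07, 3.32-fold) in BxPC3-R, while the AsPC1 line groups overlapped at levels under that of the deleted CDKN2A. TSPAN15, another TspanC8 gene, fell to 7.23, 7.61 and 7.53 in BxPC3-R, against 8.09, 8.12 and 7.96 in BxPC3 (-0.60, SE 0.12, adjusted p 0.0025), and its AsPC1 line groups overlapped. TSPAN14 fell in both derivatives, by -0.41 (SE 0.08, adjusted p 0.0032) in AsPC1-R and -0.50 (SE 0.08, adjusted p 0.000674) in BxPC3-R. Of the 6 TspanC8 genes, TSPAN33 was also called lower in BxPC3-R (-0.28, SE 0.09, adjusted p 0.0363), a call lost without any 1 of the 3 BxPC3-R arrays or BxPC3 replicates 1 or 3 (adjusted p 0.063 to 0.122). The TSPAN33 call was also lost with replicate number as a block (0.0519), with quantile normalization once more (0.0541), with arrays centred on their medians (0.108) and with limma's trend and robust settings (0.0649). The TSPAN33 means of 5.93 in BxPC3-R and 6.21 in BxPC3 lay under that of the deleted CDKN2A. TSPAN10 and TSPAN17 were called in neither derivative.

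**Figure D3:**
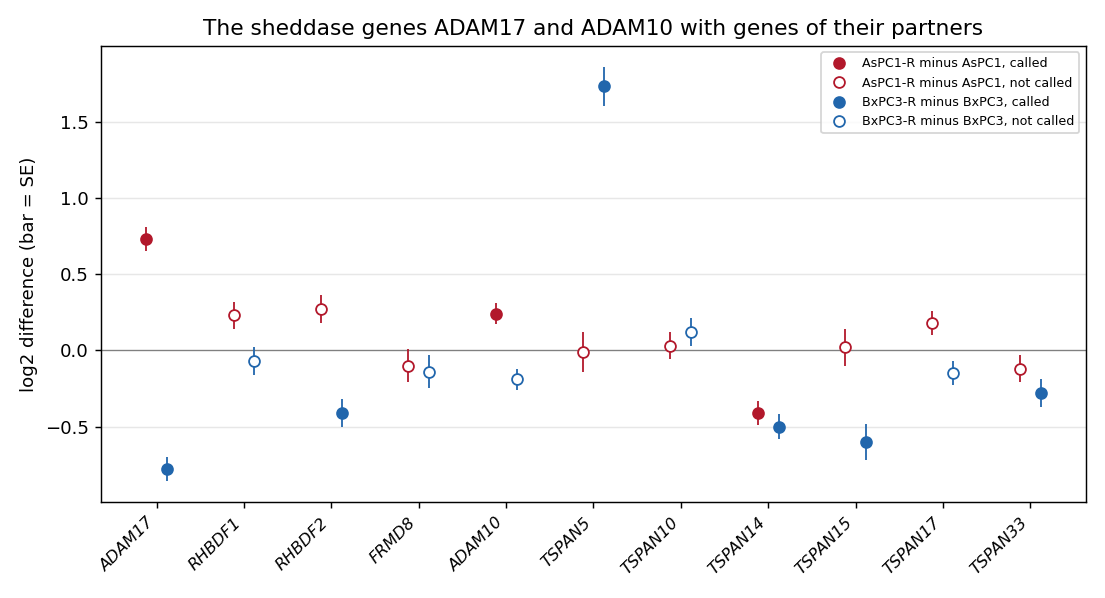
The log2 difference of ADAM17 with its partner genes and of ADAM10 with the TspanC8 genes, AsPC1-R minus AsPC1 left and BxPC3-R minus BxPC3 right for each gene, with bars showing the standard error and filled points called. ADAM17 stands at 0.73 and -0.78, RHBDF2 at 0.27 and -0.41, and TSPAN5 at 1.73 in BxPC3-R.

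Of the 17 ADAMTS genes, 1 was called in AsPC1-R (5.88%) and 3 in BxPC3-R (17.6%), all higher, against 20.3% and 20.8% of all genes. At an unadjusted limma p under 0.05 there were 1 higher and 2 lower in AsPC1-R and 3 higher and 1 lower in BxPC3-R. Of all 18417 genes, 2931 were higher and 2914 lower at that p in AsPC1-R, and 2725 and 2867 in BxPC3-R. ADAMTS6, a gene needed for heart development in mouse and picked after its values were seen, read 6.50, 6.48 and 6.50 in AsPC1-R, against 4.82, 4.90 and 5.09 in AsPC1. It read 6.18, 6.44 and 6.47 in BxPC3-R, against 6.25, 6.53 and 6.47 in BxPC3. AsPC1 was thus the group apart from the other 3, and the difference was 1.56 (SE 0.11, adjusted p 1.49e-07, 2.95-fold, size uncertain) in AsPC1-R and -0.05 (SE 0.11, adjusted p 0.802) in BxPC3-R. The lines differed by 1.61 (SE 0.15, adjusted p 2.85e-06).

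ADAMTS12, whose product cuts cartilage oligomeric matrix protein, read 8.76, 8.91 and 8.99 in BxPC3-R, against 7.93, 8.48 and 8.49 in BxPC3. It read 5.49, 5.36 and 5.86 in AsPC1-R, against 5.85, 5.55 and 5.25 in AsPC1. The BxPC3-R arrays were all higher, by 0.59 (SE 0.18, adjusted p 0.0291), and the AsPC1 line groups overlapped. This call was lost without BxPC3-R replicate 2 (adjusted p 0.0779), BxPC3-R replicate 3 (0.0979) or BxPC3 replicate 1, where the difference was 0.40 (0.13). ADAMTS20, a versican-cleaving protease gene, read 6.46, 6.66 and 6.85 in BxPC3-R, against 6.11, 6.02 and 6.20 in BxPC3, a difference of 0.55 (SE 0.12, adjusted p 0.00544) from a BxPC3 mean under that of CDKN2A. In the AsPC1 line its groups overlapped, and the lines differed by -0.65 (SE 0.17, adjusted p 0.0135). ADAMTS16 read 6.81, 6.76 and 6.54 in BxPC3-R, against 6.53, 6.41 and 6.36 in BxPC3, a difference of 0.27 (SE 0.09, adjusted p 0.0481). The ADAMTS16 call was lost without any 1 of 9 arrays, namely the 3 AsPC1-R arrays, AsPC1 replicates 1 and 3, BxPC3-R replicates 1 and 2 and BxPC3 replicates 2 and 3 (adjusted p 0.0504 to 0.191). It was also lost with limma's trend and robust settings (0.0711) and with only the groups compared (0.0738). Of the 6 aggrecanase genes measured ADAMTS20 alone was called in a derivative, and none of the 3 procollagen N-proteinase genes was called in any comparison.

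Among the inhibitors, TIMP2 rose in AsPC1-R and fell in BxPC3-R, TIMP1 rose in AsPC1-R, TIMP3 rose in BxPC3-R, and TIMP4 was called in neither derivative. TIMP2 (probe set 8018966, chromosome 17), whose product blocks MMPs and also takes part with MMP14 in activating the MMP2 precursor, read 11.45, 11.38 and 11.42 in AsPC1-R, against 10.35, 10.30 and 10.56 in AsPC1. It read 8.02, 7.94 and 8.02 in BxPC3-R, against 9.16, 9.30 and 9.10 in BxPC3. The AsPC1-R arrays were all higher and the BxPC3-R arrays all lower than their parental arrays. TIMP2 averaged 11.42 ± 0.03 in AsPC1-R and 10.40 ± 0.14 in AsPC1, and 7.99 ± 0.05 in BxPC3-R and 9.19 ± 0.10 in BxPC3 (SD, n = 3 each). The differences were 1.01 (SE 0.09, adjusted p 1.63e-06, 2.02-fold) and -1.20 (SE 0.09, adjusted p 4.12e-07, 2.3-fold lower), and the lines differed by 2.21 (SE 0.12, adjusted p 1.96e-08). The markers CD68 and PECAM1 were called in the same directions as TIMP2 and ADAM17 in both lines. LUM (-1.03 in AsPC1-R, 1.53 in BxPC3-R) and KRT18 (-0.51 and 0.78) were called in the opposite directions. No other listed marker was called in both derivatives. Called in neither were CD14 (0.28 and -0.30), CSF1R (-0.18 and 0.29), KDR and VWF, among others. CDH5 was called in BxPC3-R only. The part of these markers in the results was not tested.

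TIMP3, the matrix-bound inhibitor that also blocks ADAM17, read 11.56, 11.52 and 11.57 in BxPC3-R, against 10.77, 10.81 and 10.89 in BxPC3. It read 4.96, 5.35 and 5.45 in AsPC1-R, against 4.99, 4.99 and 5.40 in AsPC1, with overlapping groups. In BxPC3-R it rose by 0.72 (SE 0.13, adjusted p 0.0011, 1.65-fold), and in AsPC1-R the difference was 0.12 (SE 0.13, adjusted p 0.555) between levels under that of the deleted CDKN2A. A further TIMP3 probe set (8072626) gave 0.68 in BxPC3-R and -0.22 in AsPC1-R. The difference between the lines was -0.60 (SE 0.18, adjusted p 0.0277) and was not called without AsPC1-R replicate 1 (adjusted p 0.0652), AsPC1 replicate 3 (0.0503), BxPC3-R replicate 1 (0.0551) or 3 (0.0542), BxPC3 replicate 1 (0.0558) or 2 (0.052), or with quantile normalization once more (0.0732).

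TIMP1, a secreted inhibitor of most MMPs, averaged 12.39 ± 0.01 in AsPC1-R and 11.71 ± 0.25 in AsPC1 (SD, n = 3 each), where AsPC1 replicates 2 and 3 read 11.62 and 11.52. It read 12.53, 12.43 and 12.28 in BxPC3-R, against 12.15, 12.20 and 12.03 in BxPC3. The derivative arrays were all higher in both lines, and the difference was 0.68 (SE 0.11, adjusted p 0.000686, 1.6-fold) in AsPC1-R and 0.29 (SE 0.11, adjusted p 0.0966, not called) in BxPC3-R. Without AsPC1 replicate 1 the BxPC3-R difference was called (adjusted p 0.0303) and so was the difference between the lines (0.53, adjusted p 0.00927), which was 0.39 (SE 0.16, adjusted p 0.0941) with that array. The BxPC3-R difference was also called with arrays centred on their medians (0.0413). Limma's trend and robust settings called it (0.0383) and the difference between the lines (0.0408).

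TIMP4, an inhibitor known chiefly from heart, read 8.54, 8.53 and 8.30 in AsPC1-R, against 9.10, 8.67 and 8.72 in AsPC1. It read 6.17, 6.49 and 6.64 in BxPC3-R, against 6.02, 6.04 and 6.60 in BxPC3. The AsPC1 line groups were apart at -0.38 (SE 0.17, adjusted p 0.142) and the BxPC3 line groups overlapped at 0.21 (SE 0.17, adjusted p 0.456), with neither called. The difference between the lines, -0.59 (SE 0.24, adjusted p 0.0879), was called without BxPC3-R replicate 1 (adjusted p 0.0477) or BxPC3 replicate 3 (0.0155).

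**Figure D4:**
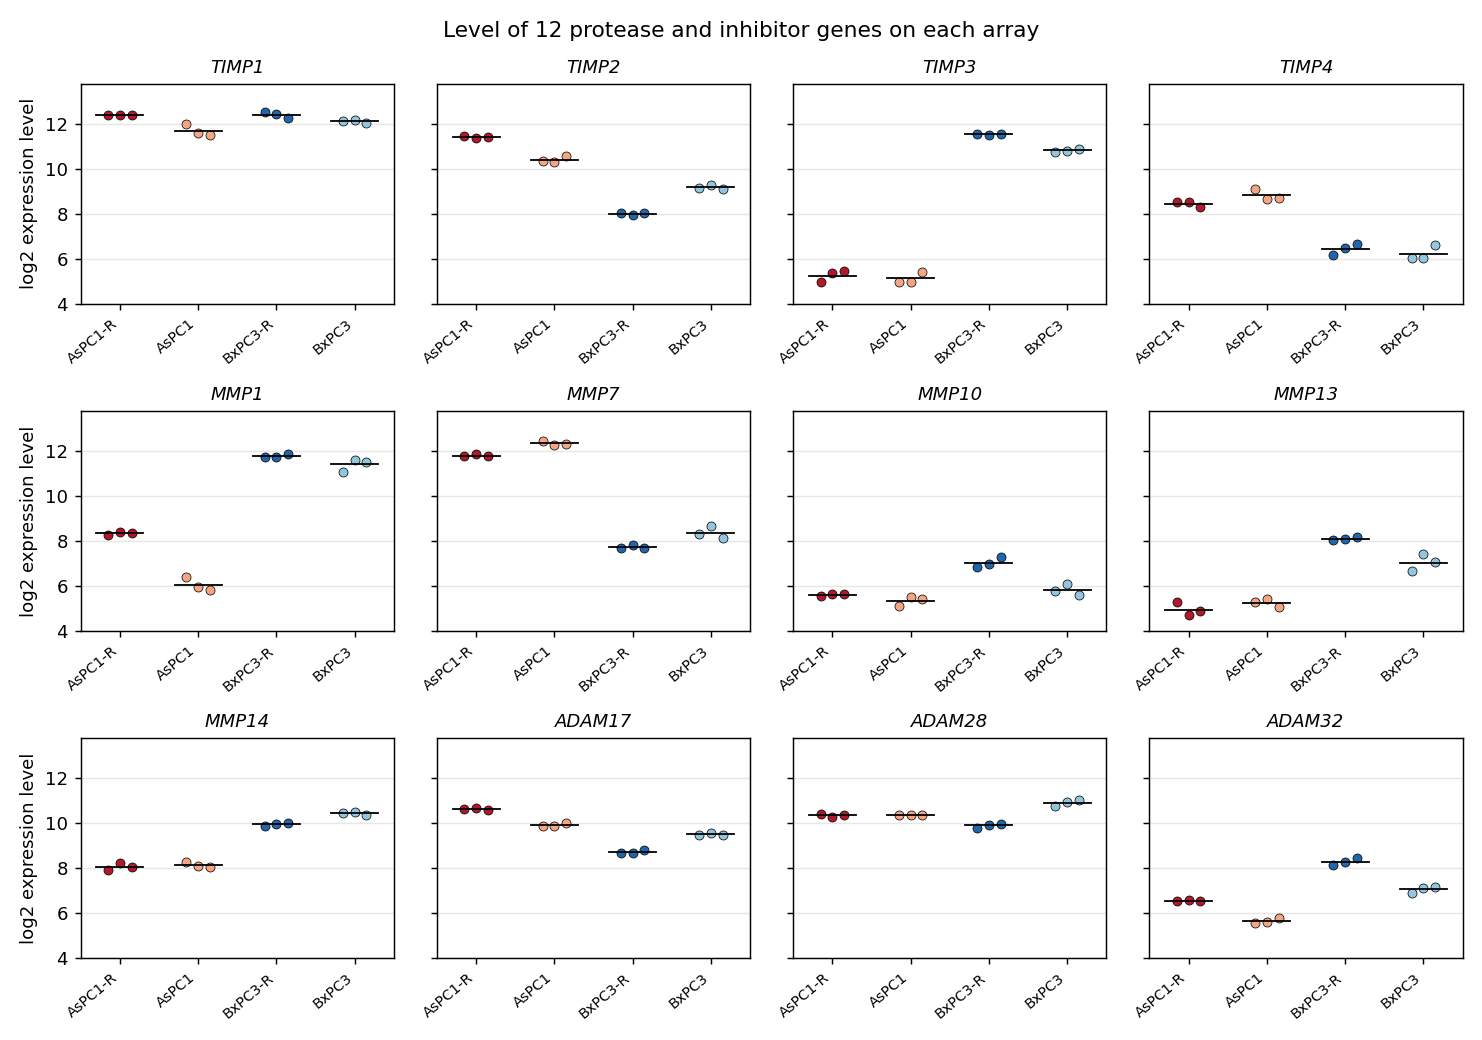
Log2 level of 12 genes on each array in AsPC1-R, AsPC1, BxPC3-R and BxPC3, with points for arrays and lines for group means on 1 shared axis. TIMP2 and ADAM17 are higher in AsPC1-R and lower in BxPC3-R than in the parental line, MMP7 is lower and ADAM32 higher in both, and TIMP3 and MMP1 are lower in AsPC1 than in BxPC3.

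The parental lines differed far more than either derivative did from its parent. Of the 66 genes, 34 were called between AsPC1 and BxPC3 (51.5%), 17 higher and 17 lower in AsPC1, where 50.6% of all genes were called, 27.7% higher and 22.9% lower. The median difference was 0.12, against 0.11 over all genes, and without BxPC3 replicate 2 there were 26 calls, 12 higher and 14 lower, with 42% of all genes. These comparisons share the parental arrays with those of the derivatives. All 4 TIMP genes were called, with TIMP2 and TIMP4 higher and TIMP1 and TIMP3 lower in AsPC1. TIMP3 averaged 5.13 ± 0.24 in AsPC1 and 10.83 ± 0.06 in BxPC3 (SD, n = 3 each), a difference of -5.70 (SE 0.13, adjusted p 2.41e-13), and its further probe set gave -4.11. TIMP4 was higher in AsPC1 by 2.61 (SE 0.17, adjusted p 1.12e-08) and TIMP2 by 1.21 (SE 0.09, adjusted p 4.01e-08), while TIMP1 was lower by -0.41 (SE 0.11, adjusted p 0.00835).

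Matrix proteases also split between the parental lines. MMP7 was higher in AsPC1 by 3.98 (SE 0.11, adjusted p 2.08e-12, 15.8-fold). MMP1 averaged 6.06 ± 0.30 in AsPC1 and 11.41 ± 0.29 in BxPC3, lower by -5.34 (SE 0.15, adjusted p 1.67e-12), and ADAMTS1, an aggrecanase and versican-cleaving protease gene, was lower by -5.11 (SE 0.14, adjusted p 9.87e-13). ADAMTS1 read 5.61, 5.11 and 5.21 in AsPC1, against 10.33, 10.45 and 10.48 in BxPC3. In AsPC1 the levels of MMP1, ADAMTS1 and TIMP3 were under that of the deleted CDKN2A, so the sizes of these differences are uncertain. Lower in AsPC1 were also ADAMTS12 (-2.75, SE 0.18), MMP14 (-2.30, SE 0.09), MMP13 (-1.79, SE 0.17) and ADAM32 (-1.40, SE 0.10). The AsPC1 means of ADAMTS12 (5.55), MMP13 (5.25) and ADAM32 (5.66) also lay under the CDKN2A level, so these sizes are uncertain too. Of the 3 collagenase genes, MMP1 and MMP13 were thus lower in AsPC1 and MMP8 was higher (0.44, SE 0.11, adjusted p 0.00531), at levels under that of the deleted CDKN2A. ADAM17 was higher in AsPC1 by 0.40 (SE 0.08, adjusted p 0.000815) and ADAM28 was lower by -0.55 (SE 0.08, adjusted p 8.99e-05).

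Smaller parental differences were found for ADAM19, a neuregulin sheddase gene, which read 7.44, 7.68 and 7.55 in AsPC1, against 6.69, 6.61 and 6.43 in BxPC3 (0.98, SE 0.10, adjusted p 1.67e-06). The stromelysin-related gene MMP11 (0.46, SE 0.10), the membrane-type gene MMP25 (0.43, SE 0.11) and ADAM33 (0.40, SE 0.11), a gene linked to asthma, were also higher in AsPC1. ADAM10 was lower by -0.30 (SE 0.07, adjusted p 0.00343). MMP10 was lower by -0.46 (SE 0.14, adjusted p 0.0145), a call lost without AsPC1 replicate 1 (adjusted p 0.07) or BxPC3 replicate 2 (0.0759). MMP2 was higher by 0.30 (SE 0.09, adjusted p 0.0147), a call lost without AsPC1 replicate 2 (0.0541) or BxPC3 replicate 3 (0.0774) and with only the groups compared (0.0584). MMP3 was not called, at -0.28 (SE 0.13, adjusted p 0.0784), but was without BxPC3 replicate 1 (0.0353), and MMP9 was not called either. The AsPC1 and BxPC3 means of MMP10, MMP2, MMP3 and MMP9 all lay under that of the deleted CDKN2A.

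**Figure D5:**
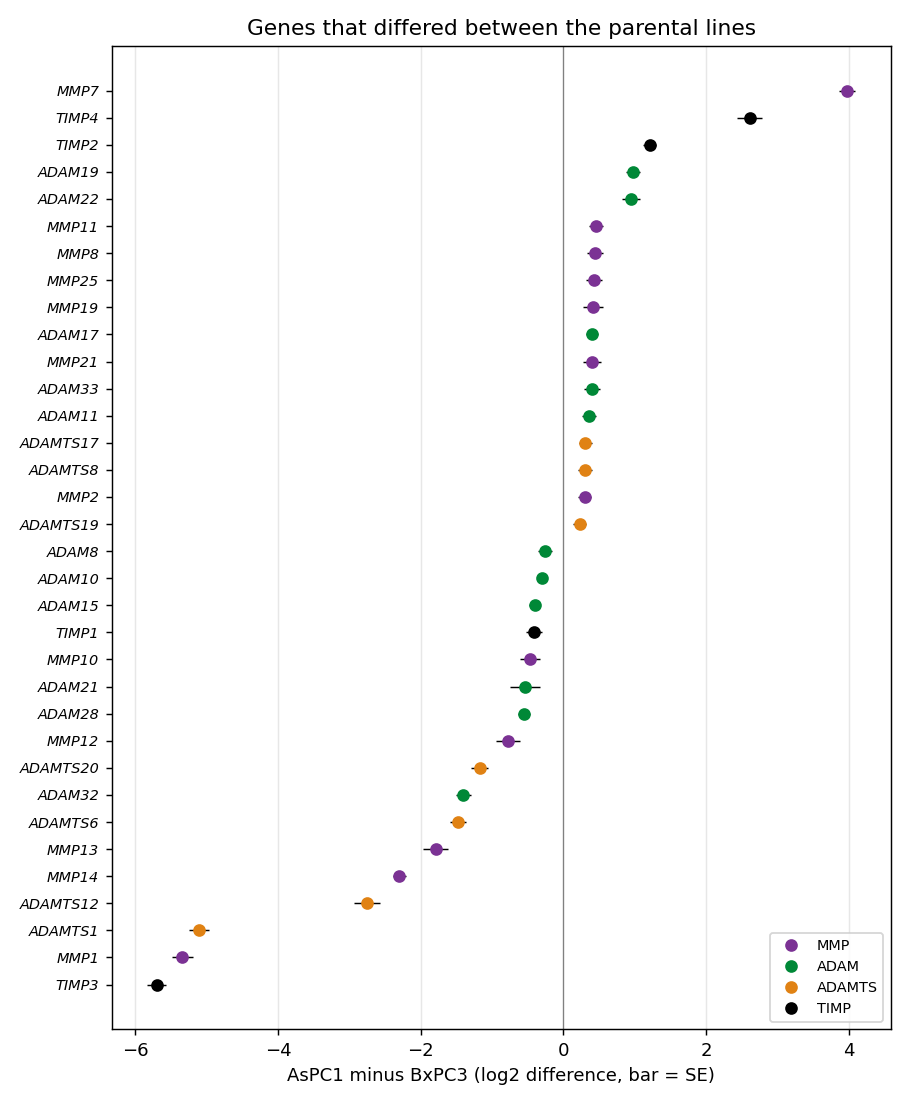
The log2 difference AsPC1 minus BxPC3 of the 34 called genes, coloured by family, with bars showing the standard error. TIMP3, MMP1 and ADAMTS1 lie at -5.70, -5.34 and -5.11 on the left, and MMP7 at 3.98 and TIMP4 at 2.61 on the right.

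Of 37 genes listed as acting on these proteases, 36 were measured. In AsPC1-R 9 were called (25%, against 20.3% of all genes), 2 higher and 7 lower, with a median of -0.06, against -0.05 over all genes. In BxPC3-R 11 were called (30.6%, against 20.8% of all genes), 3 higher and 8 lower, with a median of -0.09, against 0.02 over all genes. AP-1 and ETS factors, which bind MMP promoters, made up many of them. FOS read 8.49, 8.55 and 8.43 in AsPC1-R, against 9.55, 9.24 and 9.64 in AsPC1 (-0.99, SE 0.11, adjusted p 1.57e-05). FOSB fell by 0.69 (SE 0.10), JUN by 0.67 (SE 0.09) and JUNB by 0.49 (SE 0.10) in AsPC1-R, while FOSL2 rose by 0.60 (SE 0.10). ETS1 read 9.82, 9.88 and 9.73 in AsPC1-R, against 8.61, 8.75 and 8.67 in AsPC1, a rise of 1.13 (SE 0.08, adjusted p 2.85e-07). In BxPC3-R ETS1 was lower by -0.25 (SE 0.08, adjusted p 0.0417), and the lines differed by 1.38 (SE 0.12, adjusted p 1.02e-06). The BxPC3-R call of ETS1 was lost without AsPC1-R replicate 1, any 1 of the 3 BxPC3-R arrays, or BxPC3 replicates 2 or 3 (adjusted p 0.0517 to 0.147). It was also lost with arrays centred on their medians (0.108), with replicate number as a block (0.054) and with only the groups compared (0.0539). FOS was also lower in BxPC3-R (-0.40, SE 0.11), but not called without BxPC3-R replicate 3 (adjusted p 0.0594) or BxPC3 replicate 2 (0.0774). Also lower there were JUNB (-0.53, SE 0.10) and ETS2 (-0.47, SE 0.08). FOSL1 was higher there (0.50, SE 0.13, adjusted p 0.015), a call lost without BxPC3-R replicate 1 (adjusted p 0.0724), BxPC3-R replicate 2 (0.051) or BxPC3 replicate 3 (0.0504).

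Other regulators concern inhibition and activation. TFPI2, a secreted inhibitor that also acts on MMPs, averaged 4.18 in AsPC1 and 9.78 in BxPC3 (-5.60, SE 0.22, adjusted p 6.07e-11, size uncertain) and was called in neither derivative. RECK, the membrane-anchored MMP inhibitor, was called in neither derivative either, at group means of 4.67 to 4.94. Among the convertases that cut off the inhibitory part of MMP and ADAM precursors, PCSK6 was higher in BxPC3-R by 0.35 (SE 0.08, adjusted p 0.00749) and lower in AsPC1-R by -0.26 (SE 0.08, adjusted p 0.0404), and the lines differed by -0.61 (SE 0.12, adjusted p 0.00151). The AsPC1-R call of PCSK6 was lost without any 1 of the AsPC1-R or AsPC1 arrays, BxPC3-R replicate 3 or BxPC3 replicate 3 (adjusted p 0.053 to 0.117), with replicate number as a block (0.0652) and with only the groups compared (0.0837). PCSK5 was lower in AsPC1-R by -0.39 (SE 0.11, adjusted p 0.0201), a call lost without AsPC1-R replicates 1 or 2 or AsPC1 replicates 1 or 3 (adjusted p 0.0528 to 0.0918), and was higher in AsPC1 than in BxPC3 by 2.16 (SE 0.11, adjusted p 6.04e-10). FURIN was called in neither derivative. Between the parental lines 24 of the 36 were called (66.7%, against 50.6% of all genes), 12 higher and 12 lower in AsPC1, and the difference between the lines was called for 10 (27.8%, against 25.4%), 4 higher and 6 lower. Also lower in AsPC1 were TSPAN5 (-3.13, SE 0.13), ETS1 (-1.54, SE 0.08) and ETS2 (-1.31, SE 0.08). Higher in AsPC1 were TSPAN15 (1.82, SE 0.12), ETV5 (1.07, SE 0.10) and ETV4 (0.72, SE 0.11). The difference between the lines was -1.74 (SE 0.19) for TSPAN5, -0.90 (SE 0.13) for JUN and -0.59 (SE 0.15) for FOS. It was 0.72 (SE 0.15) for FOSL2 and 0.63 (SE 0.17) for TSPAN15. The TSPAN5 sizes are uncertain, as AsPC1 averaged 5.11.

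The nearest measured genes on the chromosome were set beside TIMP2, ADAM17 and ADAM32, called in both derivatives, and ADAMTS20, called in BxPC3-R. ADAMTS20 was picked after its values were seen, and the neighbours of other called genes are not set out here. Over all genes, 11.6% were called higher and 8.64% lower in AsPC1-R, with a median difference of -0.05. In BxPC3-R 9.75% were called higher and 11% lower, with a median of 0.02. The 10 nearest neighbours of TIMP2 had a median difference of 0.21 in AsPC1-R, with 4 called higher and 0 lower, and of -0.21 in BxPC3-R, with 0 higher and 1 lower, against 1.01 and -1.20 for TIMP2 itself. The 10 nearest neighbours of ADAM17 had medians of -0.01 in AsPC1-R, with 1 called higher and 1 lower, and 0.10 in BxPC3-R, with 1 higher and 3 lower, against 0.73 and -0.78 for ADAM17. For ADAM32, which rose in both, the neighbours' medians were 0.09 in AsPC1-R, with 3 called higher and 0 lower, and -0.01 in BxPC3-R, with 1 higher and 2 lower. The neighbours of TIMP2 thus had medians on the same side as TIMP2 in each line but of smaller size, and the medians for ADAM17 and ADAM32 lay between -0.01 and 0.10. The 10 nearest neighbours of ADAMTS20 had a median of 0.30 in BxPC3-R, with 5 called higher and 0 lower, against 0.55 for ADAMTS20 itself. In AsPC1-R their median was -0.15, with 1 higher and 3 lower, against -0.10 for ADAMTS20. The part of the chromosomal region in any of these changes was not tested.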

How the data were processed

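Total RNA from 12 samples was run on Affymetrix arrays after amplification and labelling. The authors deposited log2 levels, 1 for each probe set and array, made with Affymetrix Expression Console and RMA per the submitters' processing notes. RMA removes global shifts between arrays through quantile normalization and compresses low levels. The tool versions, annotation release and genome build were not given in the sources used here. Groups and columns were matched through the labels.

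Of 33297 probe sets, the 19460 with exactly 1 gene symbol were used, and these gave 18417 genes once the probe set with the highest mean was kept for each of 769 genes with several. Not used were 1754 probe sets with several symbols, 2 of them with a symbol of these families, and 12083 without an entry in the annotation table. No gene was filtered out before testing. All 66 members were found in RefSeq (GRCh38.p14) by gene ID, used for chromosome, gene order and promoter sequence only.

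The tests used limma 3.58.1 in R 4.3.3 (lmFit, eBayes, two-sided) on all 12 arrays with a mean per group, with 8 residual and 5.47 prior degrees of freedom. The Benjamini and Hochberg adjustment ran over all 18417 genes. Arrays carry no depth. The code was tested on simulated data. A log2 change of 1, put into 100 genes per comparison, was recovered in 100% of them for AsPC1-R, 99% for BxPC3-R and 91% for the difference between the lines, and a change of 0.585 in 82%, 88% and 34%. All unchanged genes had the same mean in every simulated group, while 20.3% or more of all genes were called in these data. The adjustment was thus stricter in the simulation, and these shares need not hold for these data. The alternatives were a block for the replicate number, leaving out dim genes, a repeated quantile normalization, centring arrays on their medians, limma's trend and robust settings, fitting only the groups compared, averaging probe sets, a threshold of 0.01 on the adjusted p, and omitting single arrays.

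Named with their values are, per comparison and direction, up to 8 members with the largest called change whose higher group mean reaches the median of all values, TIMP1 to TIMP4, MMP1, MMP2, MMP3, MMP7, MMP9, MMP10, MMP14, ADAM10 and ADAM17 in any case, and up to 4 regulators. Other names were chosen after their values were seen. The members and lists were chosen with earlier results of these data known.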

Additional observations from a re-analysis of the deposited data

Results flagged for a closer look

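For 19 of the 66 genes the change in the AsPC1 line differed from that in the BxPC3 line by the test of the difference itself, where 25.4% of all genes did so. Values are the AsPC1-R minus AsPC1 change less the BxPC3-R minus BxPC3 change, on the log2 scale. Positive values were found for TIMP2 (2.21), MMP1 (1.92), ADAMTS6 (1.61), ADAM17 (1.52), ADAM28 (1.00), ADAM22 (0.57), MMP28 (0.55), MMP24 (0.51), ADAM10 (0.43) and MMP14 (0.40). Negative values were found for MMP13 (-1.36), MMP12 (-0.97), MMP10 (-0.95), MMP3 (-0.67), ADAMTS20 (-0.65), MMP8 (-0.64), TIMP3 (-0.60), MMP21 (-0.56) and MMP2 (-0.49). The ADAM22 call was lost without AsPC1-R replicates 1 or 2, AsPC1 replicates 1 or 3, BxPC3-R replicates 1 or 3, or BxPC3 replicates 1 or 3 (adjusted p 0.0508 to 0.0796). The MMP21 call was lost without AsPC1-R replicates 2 or 3, AsPC1 replicates 1 or 2, BxPC3-R replicates 1 or 2, or BxPC3 replicates 1 or 2 (adjusted p 0.0544 to 0.0807). ADAM22 and MMP21 were named after their values were seen, and no group mean of either reached 6.22.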

How the results depend on the processing

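No value named or called changed direction under an alternative in which either setting called it. Of 1180 gene values under alternatives other than leaving out an array, 1089 kept their side of the threshold, 80 lost a call and 11 gained one, and of 1872 with an array left out, 1690 kept it, 170 lost a call and 12 gained one. The difference between the lines was called for 12 of 29 members with dim genes left out (41.4%, against 38.9% of all genes) and for 11 of 66 at an adjusted p under 0.01 (16.7%, against 16.3%), in place of 19. The regulators called in BxPC3-R were 7 in place of 11 at that threshold (19.4%, against 13.5%). With dim genes left out, 16 of 29 members were called in BxPC3-R and 23 of 29 between the parental lines (79.3%, against 63.9%). With each array left out in turn, the members called ranged from 9 to 13 in AsPC1-R, 14 to 17 in BxPC3-R, 15 to 20 for the difference between the lines and 26 to 36 between the parental lines, and the regulators from 7 to 10, 8 to 12, 9 to 11 and 18 to 24. Deviations of same-numbered samples of different groups correlated between -0.239 and 0.34 over 18 pairs of samples, 3 of them over 0.1. Such values cannot settle whether the replicate numbers pair the samples. With replicate number as a block the members called were 13, 16, 18 and 32 in the same order, and the regulators 8, 9, 9 and 25. With centred arrays, 56.7% of all genes called in BxPC3-R were higher, against 46.9% without. Depth is not measured on arrays, and levels near background limit the size of differences for the 37 members under the median. The cause of the changes in calls was not tested.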
